A study of Mus musculus with 18 samples.

Results

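The genes encoding the small leucine-rich proteoglycans were examined in Atrx knockout mesenchymal progenitor cells. All 10 genes, Omd, Ogn, Aspn, Dcn, Lum, Bgn, Fmod, Prelp, Podn and Epyc, were found by their Entrez gene identifiers among the 24100 genes listed in both count tables. The cells were C3H/10T1/2, a mouse embryonic mesenchymal line. The WT line received Cas9 with an empty guide vector, and in the knockout lines exons of Atrx, which encodes a chromatin remodeller, were targeted with guide sg5 or sg6. Each knockout line was 1 clone, G7 for sg5 and B10 for sg6, and all lines were kept in ordinary growth medium with no differentiation stimulus. A polyA set and an rRNA-depleted set of 9 libraries each held 3 libraries of WT, 3 of sg5 and 3 of sg6. Because each genotype was represented by a single line, differences between clones and effects of the knockout cannot be told apart within one comparison. Nothing in the descriptions says that replicates came from separate cultures, so the p-values measure the spread between these libraries, which may be technical.

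Small leucine-rich proteoglycans are secreted proteins of the connective tissue matrix whose cores carry leucine-rich repeats. Most bind fibrillar collagen and influence how thick its fibrils grow, and several also bind growth factors such as TGF-beta. They are grouped by sequence into classes. Biglycan, decorin and asporin belong to class I, fibromodulin, lumican, PRELP and osteomodulin to class II, epiphycan and osteoglycin to class III, and podocan to class V. Progenitors of bone, cartilage and tendon and fibroblasts are known to express many of them.

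Library totals, as deposited, ran from 27544833 to 80772108 counts in the polyA WT set, from 161036799 to 235346363 in sg5 and from 58918732 to 71896907 in sg6. The rRNA-depleted totals ran from 20135336 to 33187136, of which 84.46% to 89.62% fell on genes. Atrx itself, the targeted gene, averaged 300.3 ± 26.0 CPM (SD, n = 3; CPM are TMM-scaled counts relative to library size) in WT polyA libraries, 127.1 ± 12.2 in sg5 and 130.8 ± 9.68 in sg6. In both sets it was lower in every knockout library than in every WT library, with log2 fold changes of -1.24 and -1.199 in polyA and -1.39 and -1.31 in rRNA-depleted libraries for sg5 and sg6. Of 8 mesenchymal progenitor and fibroblast markers, 6 were at 1 CPM or more in WT and sg5 and 7 in sg6, and their summed polyA level was 17047.5 to 18973 CPM for WT, against 18540 to 19368 for sg5 and 23406 to 26032 for sg6. Among them Thy1, a surface marker, rose in sg6 (log2 7.03) and fell in sg5 (-1.73) in polyA libraries, Ly6a rose in sg6 (1.21), and Pdgfra measured -0.61 in sg5 and -0.92 in sg6. Of 6 osteoblast markers only Runx2 reached 1 CPM. Sp7, a rare transcript of that list with at most 41 counts per polyA library, fell there with either guide. Its mean polyA level was 0.378 CPM for WT, beside 0.134 (sg5, log2 -1.46, adjusted p = 0.0375) and 0.128 (sg6). Among the 4 osteoblast markers tested in this set, 1 fell in sg5, 2 fell in sg6 and 0 rose. Summed tendon markers were at 50.6 to 63.1 CPM in WT polyA libraries, 21.9 to 25.4 in sg5 and 23.3 to 35.8 in sg6. Tnmd of that list fell in sg5 in both sets and in sg6 in polyA libraries, whereas Mkx measured 0.47 and 0.50 there (adjusted p = 0.00831 and 0.00520), with every knockout library above WT, and Scx -0.66 and 0.03. Pparg, an adipocyte regulator, rose in both clones in both sets. Leukocyte, epithelial and endothelial lists of 4 genes each were low in WT polyA libraries, at 4.51 to 5.47, 2.76 to 5.03 and 1.29 to 1.99 CPM in sum, and their defining genes Ptprc and Epcam had at most 7 counts in any library. Cdh1, an epithelial cadherin, fell in both clones (-1.64 and -3.23), Krt8 and the leukocyte gene Csf1r fell in sg5 (-1.34 and -1.63), and Tek, an endothelial receptor gene, rose in both (3.54 and 3.24). Pecam1 of the endothelial list fell in both clones, averaging 0.340 CPM in WT polyA libraries, 0.136 in sg5 and 0.152 in sg6. Summed cartilage markers ranged from 863 to 1242 CPM in WT polyA libraries, from 1152 to 1742 in sg5 and from 1400 to 2349 in sg6. After rRNA depletion the WT sum spanned 271 to 394 CPM, below every library of sg5 (536 to 1210) and of sg6 (596 to 749). Of the 6 cartilage genes tested in the polyA set, 0 rose in sg5 and 1 in sg6. Of the 4 tested after rRNA depletion, 2 rose in sg5 and 0 in sg6. In either set 0 fell. In these bulk libraries, fewer cells of a type and less RNA per cell cannot be told apart. The part that such shifts of cell state play in the proteoglycan levels was not tested.

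The proteoglycan genes lie partly in clusters, and the promoters of the 5 genes whose level changed in both clones are printed to let a reader compare them. They are RefSeq windows of the GRCm38.p6 build, each reaching from 250 bases before the transcription start to 50 bases after it and written 5′ to 3′ on the strand of the gene. The windows are chr13:49582212-49582511 (+) for Omd, chr13:49544193-49544492 (+) for Aspn, chr1:134037004-134037303 (+) for Fmod, chr1:133921352-133921651 (-) for Prelp and chr4:108031905-108032204 (-) for Podn, for which the first of 2 listed starts is shown. Capitals mark matches on either strand to the TATA box TATAAA. They also mark the CCAAT box. The Sp1-type box GGGCGG is marked likewise.
Omd: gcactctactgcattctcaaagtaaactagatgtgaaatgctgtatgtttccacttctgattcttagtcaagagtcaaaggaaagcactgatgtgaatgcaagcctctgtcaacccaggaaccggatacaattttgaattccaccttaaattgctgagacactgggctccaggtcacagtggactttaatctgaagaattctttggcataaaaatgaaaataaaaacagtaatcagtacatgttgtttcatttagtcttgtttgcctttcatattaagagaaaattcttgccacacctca
Aspn: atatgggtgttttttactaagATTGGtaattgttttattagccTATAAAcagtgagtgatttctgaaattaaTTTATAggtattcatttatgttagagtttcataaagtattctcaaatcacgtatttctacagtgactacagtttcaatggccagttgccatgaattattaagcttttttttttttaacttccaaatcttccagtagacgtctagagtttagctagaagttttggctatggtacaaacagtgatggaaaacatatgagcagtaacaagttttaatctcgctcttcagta
Fmod: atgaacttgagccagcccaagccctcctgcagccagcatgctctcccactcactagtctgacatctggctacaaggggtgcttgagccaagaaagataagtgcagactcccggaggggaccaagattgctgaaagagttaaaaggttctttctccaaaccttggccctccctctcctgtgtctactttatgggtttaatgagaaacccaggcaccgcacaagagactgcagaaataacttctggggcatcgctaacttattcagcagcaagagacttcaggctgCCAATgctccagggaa
Prelp: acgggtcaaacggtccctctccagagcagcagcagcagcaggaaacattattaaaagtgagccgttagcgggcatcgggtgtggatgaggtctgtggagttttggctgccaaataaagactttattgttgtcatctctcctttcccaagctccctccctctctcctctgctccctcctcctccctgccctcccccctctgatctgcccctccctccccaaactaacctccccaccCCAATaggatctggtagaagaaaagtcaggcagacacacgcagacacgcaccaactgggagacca
Podn: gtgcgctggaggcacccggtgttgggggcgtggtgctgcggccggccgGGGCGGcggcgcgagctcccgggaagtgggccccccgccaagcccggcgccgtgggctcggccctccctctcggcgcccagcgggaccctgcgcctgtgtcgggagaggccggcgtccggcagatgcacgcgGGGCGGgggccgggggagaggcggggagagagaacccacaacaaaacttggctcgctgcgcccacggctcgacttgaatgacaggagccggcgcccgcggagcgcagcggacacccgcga
Of the genes that rose, Omd held 1 CpG dinucleotide in its window, Aspn and Fmod 3 each and Prelp 7, beside a median of 7 over 32851 promoters. For Podn, the gene that fell, the printed window held 41, and 96.5% of promoters held fewer. The window of its other listed start held 7 CpG, 0 GGGCGG and 3 CANNTG, so the Podn values depend on the start chosen. TATAAA occurred in the Aspn window, at bases -207 and -178 from the start, and was not in the windows of the other 4. It is present in 13.6% of all promoters. CCAAT occurred in Aspn, Fmod and Prelp, at -229, 35 and -15, and is present in 37.4% of all promoters. Among the 5 printed windows GGGCGG was found in that of Podn alone, 2 times, and is present in 35.7% of all promoters. CANNTG, the E-box core, was counted once in Fmod, Prelp and Podn, 2 times in Aspn and 0 times in Omd, and is present in 72.3% of promoters. These are matches of letters, and no binding was measured. Of the 10 genes, 8 matched a promoter entry by symbol. The other two were Dcn and Lum.

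Among the 10 genes, 4 rose and 1 fell in each clone in the polyA libraries. Omd, Aspn, Fmod and Prelp rose in both clones, and Podn fell in both. A gene was called when its log2 fold change exceeded 1 in size and its adjusted p was under 0.05 in edgeR's quasi-likelihood test with Benjamini-Hochberg adjustment over all 15480 genes tested in the polyA set. In the rRNA-depleted set the adjustment ran over 56086 features, genes and transposable element copies together, and an adjusted p from another tool is named as such. That call was reached upward by 3.18% of all genes in sg5 and by 3.64% in sg6, and downward by 6.96% and 7.54%. In both clones together, 2.18% of genes rose and 5.48% fell. All knockout libraries lay above all WT libraries for 6 of the 10 genes in each clone, beside 21.2% of all genes in sg5 and 22.4% in sg6, and below them for 1 gene, beside 20.3% and 20%. The median log2 fold change of the 10 genes was 0.91 in sg5 and 0.68 in sg6, beside -0.0024 and -0.0061 over all genes. In the rRNA-depleted libraries 9 of the 10 genes had enough counts to be tested. Of these 4 rose in sg5, namely Omd, Aspn, Fmod and Prelp, and 3 in sg6, which were Omd, Fmod and Prelp. The upward share of all 13303 genes tested was 3.04% in sg5 and 2.16% in sg6, and 1.36% of genes rose in both clones. Every knockout library exceeded every WT library for 6 genes in sg5 and 4 in sg6, beside 21.4% and 17.1% of all genes. No gene of the family fell there in edgeR or in DESeq2, and in the reported fit 0 were lower at an unadjusted p below 0.05. Over all genes 4.31% fell in sg5, 3.59% in sg6 and 2.62% in both, and 14.9% and 14.2% had every knockout library below every WT library. The comparisons of sg5 and of sg6 with WT share the WT libraries.

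**Figure D1:**
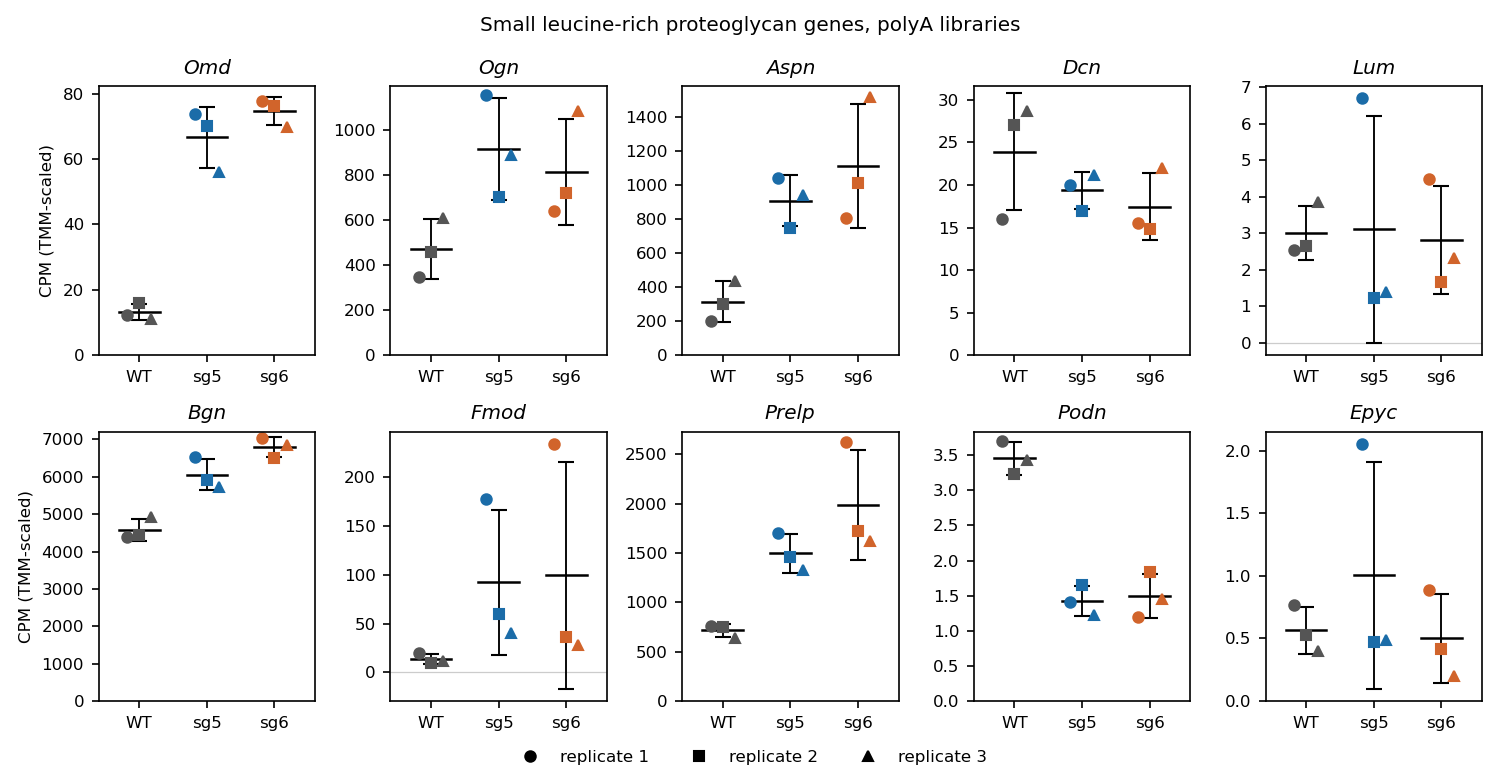
Each panel plots 1 gene, with TMM-scaled CPM in polyA libraries on the vertical axis and the 3 lines on the horizontal axis. Symbols are single libraries by replicate number, horizontal lines are means and bars are ± 1 SD (n = 3). Omd in the knockout libraries sits between 56.1 and 77.8 CPM, above all WT libraries, and the highest Fmod values in sg5 and sg6 come from replicate 1.

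**Figure D2:**
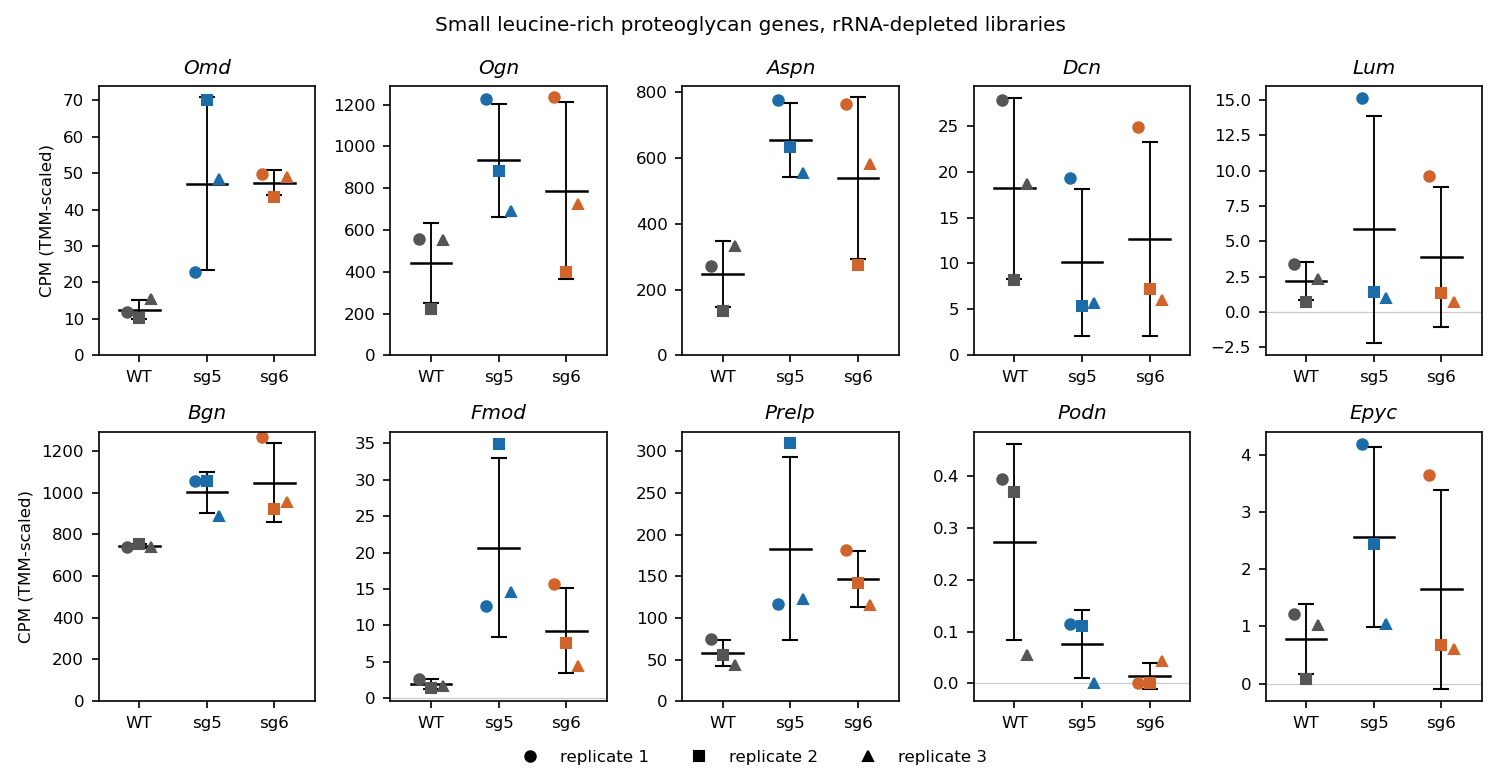
The same genes in the rRNA-depleted libraries, drawn in the same way. Omd reaches 22.8 to 70.3 CPM in sg5 against 10.4 to 15.4 in WT, and Dcn, Lum, Ogn and Epyc are highest in replicate 1 of every line.

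Within class I, Bgn was the most abundant family gene in the polyA set, Aspn rose, and Dcn was not called. Biglycan carries chondroitin or dermatan sulfate chains and binds collagen. Bgn measured 4379, 4433 and 4922 CPM in the WT polyA libraries, 6539, 5905 and 5736 in sg5, and 7034, 6499 and 6837 in sg6. Every knockout library exceeded every WT library. The log2 fold changes were 0.40 ± 0.097 (SE, adjusted p = 0.0144) in sg5 and 0.57 ± 0.097 (adjusted p = 0.00233) in sg6, which stayed under the fold threshold although the adjusted p was below 0.05. In rRNA-depleted libraries Bgn was at 737 to 754 CPM in WT, against 889 to 1057 for sg5 and 923 to 1264 for sg6. The groups did not overlap, the log2 fold changes were 0.43 and 0.49, and neither adjusted p (0.137 and 0.108) was below the threshold.

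Asporin, a relative of decorin that lacks the usual glycosaminoglycan attachment and carries a run of aspartate residues, binds collagen and calcium. Aspn measured 204, 304 and 439.5 CPM in WT polyA libraries, 1039.6, 746 and 941 in sg5 and 809, 1014 and 1517 in sg6. The lowest knockout library lay above the highest WT library. The rise was 2.88-fold in sg5 (log2 1.52 ± 0.30 SE, adjusted p = 0.00586) and 3.52-fold in sg6 (1.82 ± 0.30, adjusted p = 0.00207). In rRNA-depleted libraries WT gave 270, 136 and 332 CPM, sg5 gave 776, 632 and 554, and sg6 gave 763, 274 and 580. The sg6 library at 274 fell within the WT range, though each sg6 library exceeded the WT library of its own replicate number. The log2 fold change there was 1.41 (adjusted p = 0.0350) in sg5 and 1.13 (adjusted p = 0.117) in sg6. The sg5 call was lost without WT replicate 1 (adjusted p = 0.0713), WT replicate 2 (0.111) or sg5 replicate 2 (0.0551), without replicate 1 of every line (0.0815) and with at least 10 counts required in every library (0.0547). In sg6 the gene was called by edgeR with the replicate number as a block (log2 1.103, adjusted p = 0.0194), without sg6 replicate 2 (0.00966) and without a filter on low counts (3.067e-08), and by DESeq2 (0.0224). The unfiltered fit takes in every feature with any count, transposable element copies included. Its adjusted p was far smaller at nearly the same log2 fold change (1.16), for reasons not tested.

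Decorin, the best known regulator of collagen fibril diameter, was expressed at a low level. Dcn gave 16.03, 27.0 and 28.6 CPM in WT polyA libraries, 19.98, 17.0 and 21.1 in sg5, and 15.6, 14.9 and 21.9 in sg6. All 3 groups overlapped. The log2 fold changes were -0.31 (95% interval -0.81 to 0.20) in sg5 and -0.46 (-0.97 to 0.05) in sg6, with adjusted p = 0.347 and 0.158. In rRNA-depleted libraries replicate 1 stood high in every line, with 27.8 CPM for WT, 19.3 for sg5 and 24.8 for sg6. The other libraries held 8.15 and 18.6 CPM in WT, 5.35 and 5.68 in sg5, and 7.23 and 6.003 in sg6. The intervals of the log2 fold change, -2.10 to 0.42 in sg5 and -1.77 to 0.73 in sg6, were wide and included 0. With the replicate number as a block in edgeR it was -0.99 ± 0.26 (SE, adjusted p = 0.0399) in sg5. That stayed just within the fold threshold. In sg6 the blocked value was -0.67 ± 0.25 (adjusted p = 0.211).

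Within class II, 3 of 4 genes rose in both clones and in both sets. Osteomodulin, a keratan sulfate proteoglycan known from bone that binds mineral, showed the narrowest intervals of these. Omd gave 12.3, 15.98 and 11.2 CPM in WT polyA libraries. In sg5 it gave 73.7, 70.2 and 56.1 CPM, and in sg6 77.8, 76.3 and 69.8. No knockout library came near the WT range. The rise was 5.04-fold in sg5 (log2 2.33 ± 0.15 SE, 95% interval 1.99 to 2.67, adjusted p = 1.26e-05) and 5.64-fold in sg6 (2.50 ± 0.15, 2.15 to 2.84, adjusted p = 8.47e-06). In rRNA-depleted libraries WT measured 11.999, 10.4 and 15.4 CPM, sg5 22.8, 70.3 and 48.5, and sg6 49.8, 43.4 and 48.9. The sg5 library at 22.8 was the nearest to WT, and the groups still did not overlap. The folds were 3.74 (adjusted p = 0.00270) and 3.76 (adjusted p = 0.00291). Omd was called in all 17 refits of each polyA comparison and all 18 of each rRNA-depleted one that used the same call, with log2 fold changes from 1.55 to 2.66.

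Fibromodulin, a keratan sulfate proteoglycan that binds collagen I and shapes tendon fibrils, had the highest fitted fold in the family and a large spread. Fmod gave 19.4, 9.51 and 11.4 CPM in WT polyA libraries, 177, 59.3 and 40.4 in sg5, and 234, 36.1 and 28.3 in sg6. Replicate 1 was highest in all 3 lines, and every knockout library lay above every WT library. The rise was 6.95-fold in sg5 (log2 2.80 ± 0.88 SE, adjusted p = 0.0421) and 7.49-fold in sg6 (2.90 ± 0.88, adjusted p = 0.0338). Without sg5 replicate 1 the log2 fold change of sg5 was 1.91 (adjusted p = 0.140), and without sg6 replicate 1 that of sg6 was 1.27 (adjusted p = 0.153), so neither was then called. The polyA call was also lost without WT replicate 1 (0.0568, sg5), WT replicate 2 (0.139 in sg5, 0.118 in sg6), WT replicate 3 (0.109 and 0.0880) and sg5 replicate 2 (0.0604, sg5). With the replicate number as a block in edgeR, both polyA calls were kept and the SE was smaller. The blocked log2 fold change was 2.50 ± 0.38 (adjusted p = 0.00178) in sg5 and 2.28 ± 0.38 (adjusted p = 0.00250) in sg6. In rRNA-depleted libraries WT held 2.67, 1.44 and 1.70 CPM, sg5 12.6, 34.9 and 14.6, and sg6 15.7, 7.60 and 4.43. Here sg5 replicate 2 was the highest. The log2 fold changes were 3.42 ± 0.49 (adjusted p = 0.00107) in sg5 and 2.266 ± 0.48 (adjusted p = 0.0186) in sg6. The sg6 call there was lost without WT replicate 2 (0.0762), WT replicate 3 (0.123) or sg6 replicate 1 (0.0501).

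PRELP has a basic heparin-binding end and is known to anchor basement membranes to the matrix. Prelp gave 763, 749.5 and 636 CPM in WT polyA libraries, 1705, 1456 and 1326 in sg5, and 2627, 1719 and 1619 in sg6. All knockout libraries were above all WT libraries. It rose 2.09-fold in sg5 (log2 1.06 ± 0.19 SE, adjusted p = 0.00331) and 2.78-fold in sg6 (1.47 ± 0.19, adjusted p = 0.000519). The sg5 value lay close to the fold threshold and passed below it without WT replicate 3 (0.98) or sg5 replicate 1 (0.95). It also did so without replicate 1 of every line (0.9993). In rRNA-depleted libraries WT was at 74.4, 55.05 and 43.0 CPM, sg5 at 116, 309.8 and 122, and sg6 at 182, 142 and 115. The groups did not overlap. The log2 fold changes were 1.67 (adjusted p = 0.0123) in sg5 and 1.35 (adjusted p = 0.0464) in sg6. The sg5 call was lost without WT replicate 2 (0.0546) or WT replicate 3 (0.0853). The sg6 call was lost without WT replicate 1 (0.0531), WT replicate 2 (0.149), WT replicate 3 (0.239), sg6 replicate 1 (0.119) or sg6 replicate 2 (0.0697). It was also lost without replicate 1 of every line (0.0560) and with at least 10 counts required in every library (0.0616).

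Lumican, which fibromodulin resembles and which is known from cornea and tendon, was low and uneven. Lum gave 2.55, 2.64 and 3.87 CPM in WT polyA libraries, 6.71, 1.22 and 1.41 in sg5, and 4.50, 1.67 and 2.33 in sg6. In both clones replicate 1 lay above the WT libraries and the other libraries below the WT mean. The log2 fold changes were 0.04 (95% interval -1.41 to 1.48) in sg5 and -0.09 (-1.56 to 1.37) in sg6. In rRNA-depleted libraries the same split was seen, with 15.1, 1.45 and 0.966 CPM in sg5 and 9.61, 1.34 and 0.701 in sg6 against 3.42, 0.737 and 2.37 in WT. The intervals there ran from -0.70 to 3.59 and from -1.31 to 2.99.

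In class III, Ogn was abundant and higher in the clones without reaching the call in the reported fit, and Epyc was near the detection limit. Osteoglycin, also called mimecan, is a keratan sulfate proteoglycan of bone and vessel wall. Ogn gave 346, 457 and 609.6 CPM in WT polyA libraries, 1153, 703 and 885 in sg5, and 640.1, 718 and 1082 in sg6. Every knockout library exceeded every WT library. The log2 fold change was 0.96 ± 0.27 (SE, adjusted p = 0.0272) in sg5 and 0.79 ± 0.27 (adjusted p = 0.0511) in sg6. Without WT replicate 3 both were called, at 1.19 and 1.02, and without sg5 replicate 2 sg5 was (1.12). In rRNA-depleted libraries WT gave 555, 222 and 553 CPM, sg5 1226, 882 and 691, and sg6 1239, 399 and 724. The sg6 library at 399 lay within the WT range, though each sg6 library exceeded the WT library of its own replicate number. The log2 fold changes were 1.07 (adjusted p = 0.161) in sg5 and 0.83 (adjusted p = 0.393) in sg6. In sg5 the rRNA-depleted change was called with the replicate number as a block (1.17, adjusted p = 0.0154) and without a filter on low counts (1.11, adjusted p = 6.56e-08). As for Aspn, the unfiltered fit gave a far smaller adjusted p at nearly the same fold, for reasons not tested.

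Epiphycan, a dermatan sulfate proteoglycan of growth plate cartilage, had 11 to 325 counts in the polyA libraries and 2 to 109 in the rRNA-depleted libraries. In polyA libraries it gave 0.769, 0.526 and 0.400 CPM in WT, 2.05, 0.471 and 0.487 in sg5, and 0.888, 0.418 and 0.195 in sg6. The log2 fold changes were 0.86 (95% interval -0.69 to 2.41) in sg5 and -0.11 (-1.78 to 1.55) in sg6. In rRNA-depleted libraries they were 1.72 (adjusted p = 0.287) and 1.08 (adjusted p = 0.673), and 1 WT library held 2 counts. An annotated antisense transcript, Gm10754, covers 1041 exon bases of Epyc. How reads of the 2 strands were told apart is not given in the sources used here, so Epyc counts are uncertain.

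Podocan, the class V gene, was the single gene of the 10 to fall. Podn gave 3.70, 3.23 and 3.42 CPM in WT polyA libraries, 1.41, 1.65 and 1.23 in sg5, and 1.198, 1.83 and 1.46 in sg6. All knockout libraries lay below all WT libraries. The log2 fold change was -1.27 ± 0.19 (SE, adjusted p = 0.00154) in sg5 and -1.203 ± 0.20 (adjusted p = 0.00190) in sg6. In rRNA-depleted libraries it had 9, 10 and 2 counts in WT, 3, 2 and 0 in sg5, and 0, 0 and 1 in sg6. That was too few for the test.

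**Figure D3:**
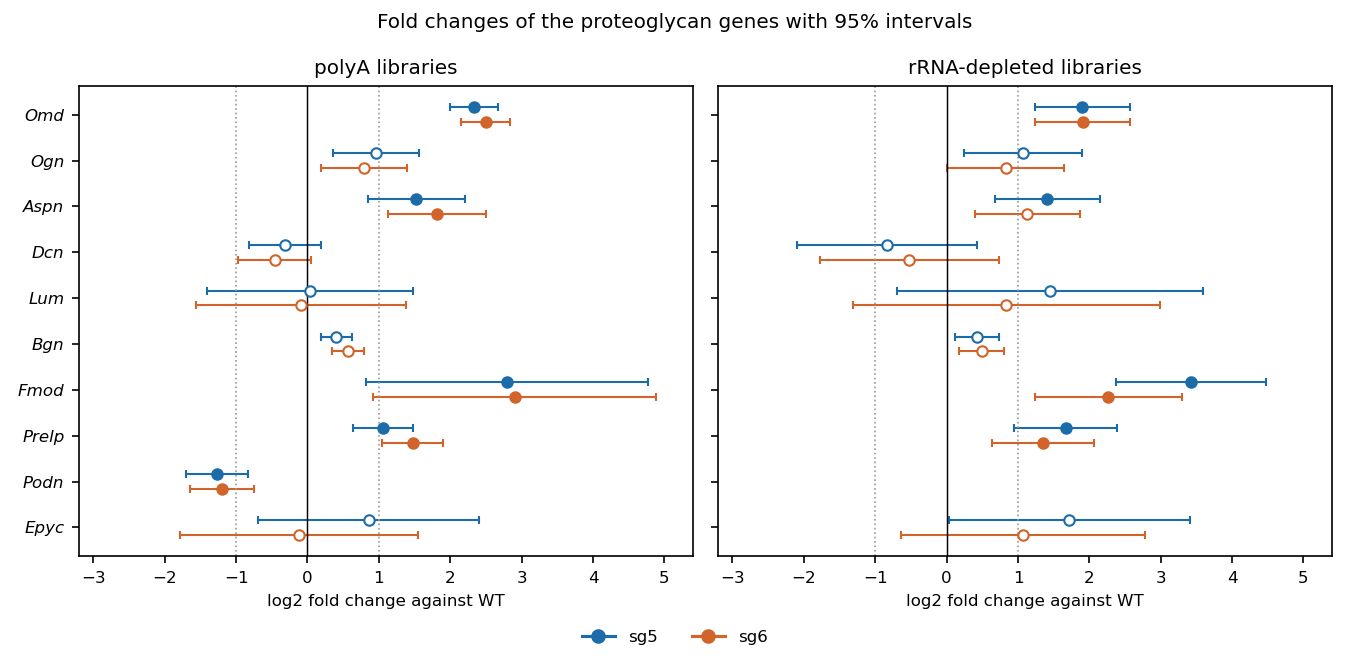
Log2 fold changes against WT with 95% intervals for each gene, sg5 in blue and sg6 in orange, in polyA libraries on the left and rRNA-depleted libraries on the right. Filled points passed the call, open points did not, and dotted lines mark a log2 fold change of 1 in either direction. The intervals of Omd lie above 1 in all 4 comparisons, and Podn has no point on the right because it was not tested there.

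A direct test of sg5 against sg6 was also made. None of the 10 genes was called between sg5 and sg6 in the polyA libraries, by edgeR or by DESeq2, and 0 had an unadjusted p below 0.05. Of all genes, 1.36% were called with the higher level in sg5 and 1.25% with the higher level in sg6. In rRNA-depleted libraries none of the 9 tested genes was called by either tool, and 1, Fmod, had an unadjusted p below 0.05. Fmod was 2.23-fold higher in sg5 than in sg6 there (log2 1.16, 95% interval 0.21 to 2.10, adjusted p = 0.498). There, 0.556% of all genes were called with more in sg5 and 0.925% with more in sg6. For Omd the difference between the clones was -0.16 (95% interval -0.49 to 0.16) in polyA and -0.01 (-0.64 to 0.63) in rRNA-depleted libraries. For Prelp it was -0.41 (-0.83 to 0.01) and 0.32 (-0.38 to 1.03). For Lum the interval of -1.30 to 1.56 in polyA libraries covers large differences of either sign.

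The spread between libraries of 1 line was described by the coefficient of variation. The median coefficient of variation of the 10 genes was 26.3% in WT polyA libraries, 15.7% in sg5 and 28.5% in sg6, beside 14.4%, 9.35% and 10.8% over all tested genes. In rRNA-depleted libraries it was 40.9%, 59.6% and 53.8% over 9 genes, beside 14.9%, 17.0% and 14.6%. The library with the same replicate number was highest in all 3 lines for 4 of 10 genes in polyA, which were Dcn, Fmod, Prelp and Epyc. In rRNA-depleted libraries this held for Ogn, Dcn, Lum and Epyc, 4 of 9 tested. Over all tested genes the shares were 28.2% and 34.8%.

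Per kilobase of exon, the order of levels in WT polyA libraries was Bgn at 751 CPM per kb, Prelp at 198, Ogn at 184, Aspn at 134, Omd at 5.86, Dcn at 4.09, Fmod at 4.07, Lum at 1.23, Podn at 0.808 and Epyc at 0.221. The ranges of Prelp (176 to 211), Ogn (135 to 238) and Aspn (86.6 to 187) overlapped one another. Omd (4.98 to 7.11), Dcn (2.75 to 4.90) and Fmod (2.88 to 5.86) formed the next group, in which Omd and Dcn did not overlap. In sg5, Omd stood at 29.6 and Fmod at 27.9 CPM per kb, and in sg6 at 33.2 and 30.1, with Dcn behind at 3.31 and 2.99. In WT rRNA-depleted libraries the leading genes were Ogn at 173, Bgn at 122 and Aspn at 104, whose ranges all overlapped, and Prelp followed at 15.9.

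The levels of WT cells in the 2 library kinds were set side by side, though each table was scaled separately. The counting also differed, with Salmon estimates for polyA libraries and counts per gene and transposable element copy after STAR alignment for rRNA-depleted libraries. Omd, Ogn, Aspn, Dcn and Lum measured 1.05 to 1.39 times as much CPM in polyA as in rRNA-depleted libraries, and Epyc 0.727 times. Bgn measured 6.15 times as much, Fmod 6.94, Prelp 12.5 and Podn 12.6, beside a median of 1.24 over 12652 genes. The longest annotated transcripts of the latter 4 genes had a GC content of 51.2% to 56.3%, and those of the other 6 had 34.3% to 41.9%. The parts of base content and of the counting step in these ratios were not tested. Fold changes against WT are computed within a library kind.

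**Figure D4:**
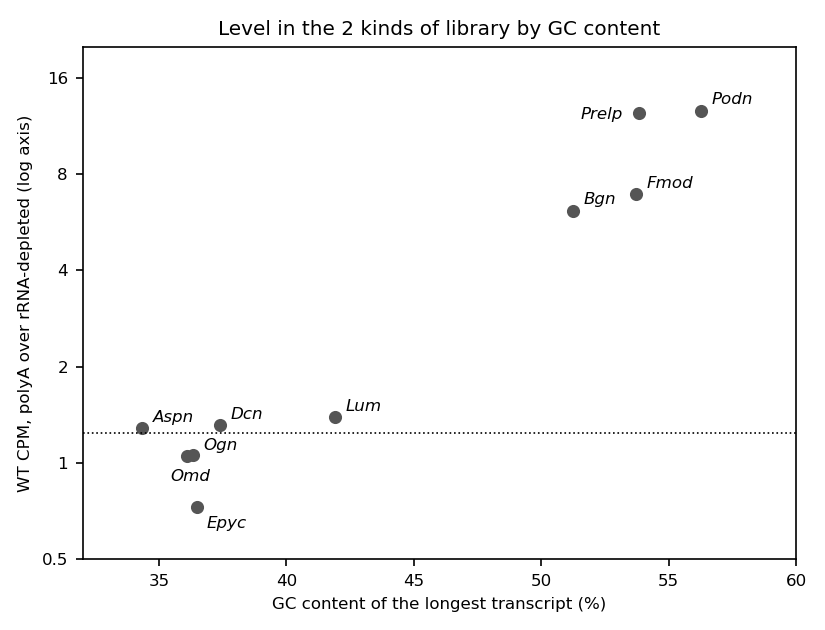
The ratio of WT CPM in polyA to rRNA-depleted libraries (log axis) against the GC content of the longest annotated transcript, with 1 point for each gene. The dotted line is the median ratio of 12652 genes, 1.24. Bgn, Fmod, Prelp and Podn lie at ratios of 6.15 and above and at over 50% GC, apart from the other 6 genes.

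Members of the family lie together in the genome, and their neighbours were tabulated. In the GRCm38 build, the same as mm10, Ecm2, Aspn, Omd and Ogn span chr13:49504810-49624501. Of 16 other genes within 1 Mb tested in polyA libraries, 1 was called, Gm906, which was lower in both clones. The share of all genes lower in both was 5.48%. Gm906 had 7, 57 and 11 counts in WT and 0 in every knockout library. In rRNA-depleted libraries 17 neighbours were tested, and 0 were called. Every sg6 library exceeded every WT library for 7 neighbours in polyA and 8 in rRNA-depleted libraries, beside 22.4% and 17.1% of all genes. For sg5 this held for 3 and 4, beside 21.2% and 21.4%. All sg6 libraries lay below all WT libraries for 1 and 0 neighbours, beside 20% and 14.2%, and all sg5 libraries for 2 and 1, beside 20.3% and 14.9%. The neighbours' median log2 fold change was 0.02 in sg5 and 0.37 in sg6 in polyA libraries, and 0.13 and 0.34 in rRNA-depleted libraries. The median of all tested genes of chromosome 13 was -0.07 in sg5 and 0.22 in sg6 in polyA libraries, and with that median removed Omd was at 2.28 in sg6. Ecm2, the class I relative at the other end of the cluster, gave 15.9 to 38.3 CPM in WT, against 22.7 to 34.0 for sg5 and 26.5 to 35.4 for sg6 and overlapped in all lines, with log2 fold changes of 0.05 and 0.21.

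Cenpp, a centromere protein gene on the opposite strand, spans Aspn, Omd and Ogn and shares 7 exon bases with Aspn and 0 with Omd and Ogn. Its log2 fold changes were -0.00079 and 0.31 in polyA libraries and 0.87 (adjusted p = 0.0442) and 0.77 (adjusted p = 0.0954) in rRNA-depleted libraries. Aspn, Ogn and Fmod shared no 31-base word of their transcripts with another gene, and Omd shared 6.46% of its words, most with Vamp3. Prelp shared 8.998%, most with the antisense gene Gm15851, which covers 350 of its exon bases.

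Optc, Prelp and Fmod span chr1:133897199-134048277. Of 26 neighbours tested in polyA libraries, 1 rose and 3 fell in sg5, and 2 rose and 4 fell in sg6. Over all genes 3.18% rose and 6.96% fell in sg5, and 3.64% and 7.54% in sg6. Sox13, a transcription factor gene, was called higher in both clones, and the muscle genes Mybph and Myog and the receptor gene Lgr6 were called lower in both. These were rare transcripts, with 12 to 13 counts per WT library for Sox13, 4 to 40 for Mybph and Myog and 12 to 23 for Lgr6. In rRNA-depleted libraries 19 neighbours were tested, and their log2 fold changes had medians of 0.34 (sg5) and 0.17 (sg6). Optc, the class III gene opticin, gave 1.25 to 1.61 CPM in WT, against 1.24 to 1.59 for sg5 and 0.852 to 1.39 for sg6, overlapping in all lines. Dcn, Lum, Kera and Epyc span chr10:97479609-97682454, where 1 of 5 neighbours was tested, with log2 fold changes of -0.65 in both clones in polyA libraries.

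**Figure D5:**
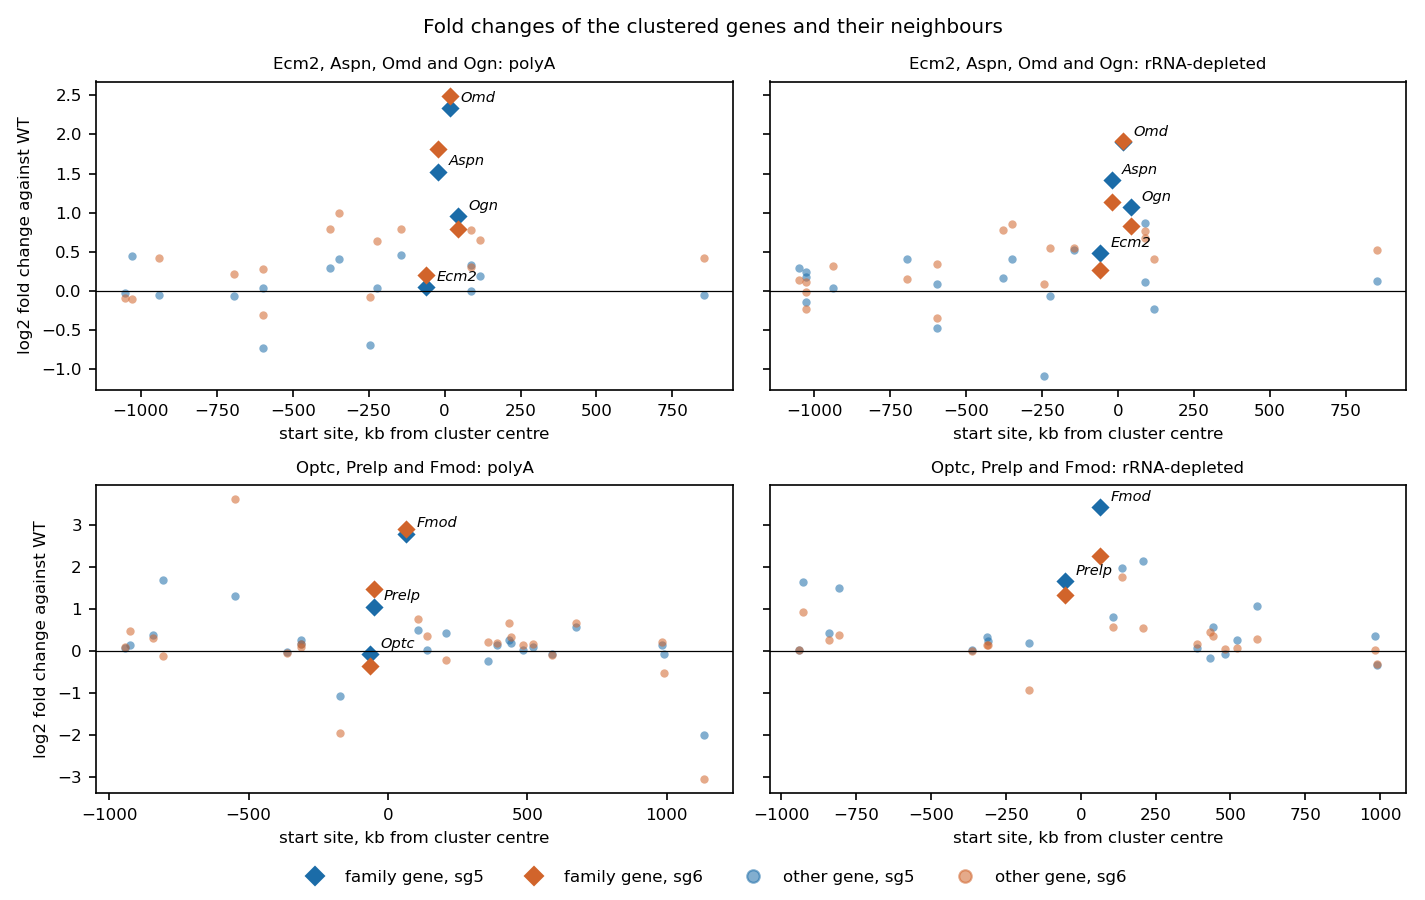
Log2 fold change against WT of the clustered family genes (diamonds) and of other genes within 1 Mb (circles), by distance of the start site from the cluster centre in kb, sg5 in blue and sg6 in orange. Genes with 3 or fewer counts summed over a line are left out, which removes Gm906, Mybph, Myog and Etnk2. Omd and Fmod stand above the family genes Ecm2 and Optc of their own clusters.

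Of 8 other leucine-rich matrix genes, 6 were tested in polyA libraries, and 1 was called in sg5 and 3 in sg6, all lower. Of all genes, 6.96% were called lower in sg5 and 7.54% in sg6. Podnl1, the nearest relative of podocan, fell in both clones and in both sets. It gave 3.35 to 4.87 CPM in WT polyA libraries, 1.16 to 1.26 in sg5 and 1.26 to 2.06 in sg6 (log2 -1.74, adjusted p = 0.000453, and -1.27, adjusted p = 0.00219). In rRNA-depleted libraries its log2 fold changes were -2.49 and -1.68. Chadl, which inhibits collagen fibril growth in cartilage, gave 2.31 to 9.12 CPM in WT, against 0.571 to 3.23 for sg5 and 0.462 to 0.595 for sg6 and was called in sg6 polyA libraries alone. Nyx, known from the retina, was called lower in sg6 polyA libraries (-1.10, adjusted p = 0.0119) and measured -0.71 in sg5. Tsku, a secreted signalling inhibitor, was called lower in sg5 rRNA-depleted libraries (-1.08, adjusted p = 0.0368) and measured -0.87 there in sg6. Kera, the corneal gene, had 0 to 7 counts in any library, and Chad, of cartilage, at most 27, and neither was tested.

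Enzymes that build the glycosaminoglycan chains were counted next. Of 21 tested genes for the linker and for chondroitin and dermatan sulfate, 2 rose and 1 fell in each clone in polyA libraries. Shares over all genes were 3.18% up and 6.96% down in sg5, and 3.64% and 7.54% in sg6. The list's median log2 fold change was 0.11 in sg5 and 0.21 in sg6. Chsy3, a chondroitin polymerase, rose (1.92 and 2.13, adjusted p = 0.0166 and 0.0111). Chst11, a chondroitin 4-sulfotransferase, rose in both sets, with 1.24 and 1.19 in polyA and 2.12 and 1.38 in rRNA-depleted libraries. Xylt1, which places the first sugar of the linker, fell in polyA libraries (-1.99 and -4.68, adjusted p = 0.0107 and 0.000263). In rRNA-depleted libraries it was called lower in sg6 and measured -1.39 in sg5 (adjusted p = 0.0949). Of 7 tested keratan sulfate genes, 1 fell in each clone in polyA libraries, the sialyltransferase gene St3gal1 (-1.21 and -1.24). In rRNA-depleted libraries Chst2, a sulfotransferase gene, fell in both clones (-1.39 and -1.70), and it measured -0.41 and -0.96 in polyA libraries.

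Collagens, partners and receptors followed. Of 12 collagen genes tested in polyA libraries, 9 had a log2 fold change above 0 in sg5 and 11 in sg6, and 1 was called in each direction in both clones, beside 2.18% of all genes higher and 5.48% lower in both. Col12a1, which encodes a collagen on the fibril surface, rose in both clones (1.36 and 1.70, adjusted p = 0.00190 and 0.000510) and Col5a3, a minor fibrillar chain, fell in both (-1.41 and -1.34). The list's median was 0.43 in sg5 and 0.50 in sg6. The collagens called in rRNA-depleted libraries, 2 in sg5 and 1 in sg6, were all higher, beside 3.04% and 2.16% of all genes. Col5a3 measured -1.28 and -1.25 there, and under the replicate block it was called lower in both clones (-1.52 and -1.55, adjusted p = 0.00230 and 0.00244). Of 14 partner and receptor genes tested in polyA libraries, 1 rose and 4 fell in sg5 and 2 rose and 2 fell in sg6. Over all genes 3.18% rose and 6.96% fell in sg5 there, and 3.64% and 7.54% in sg6. Tlr2, the receptor for soluble biglycan, fell in both clones in both sets, with log2 fold changes of -2.03 and -2.30 in polyA and -1.75 and -1.76 in rRNA-depleted libraries. P2rx7, a receptor linked to biglycan signalling, fell in both clones in rRNA-depleted libraries (-3.43 and -1.55), and in polyA libraries it fell in sg5 (-1.33) and measured -0.64 in sg6. Tnxb, a tenascin that binds decorin, fell in polyA libraries (-1.84 and -1.88). Eln, encoding elastin, rose there (2.87 and 2.98, adjusted p = 0.0176 and 0.0135), and in rRNA-depleted libraries it was called in sg6 (2.50) and measured 1.51 in sg5, where the block gave 1.78 (adjusted p = 0.00290).

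Of 8 tested processing proteases, 1 rose in each clone in polyA libraries, beside 3.18% of all genes in sg5 and 3.64% in sg6. It was Tll1, a tolloid-like metalloprotease of the family that trims biglycan and other matrix precursors (2.44 and 1.71, adjusted p = 0.000375 and 0.00206). In rRNA-depleted libraries it was called in sg5 (2.00) and measured 1.58 in sg6 (adjusted p = 0.0581, or 0.0415 with the replicate number as a block). Of 18 other proteoglycan genes tested in polyA libraries, 1 rose and 2 fell in each clone. Downward, the share of all genes was 6.96% in sg5 and 7.54% in sg6. Prg4, encoding lubricin, rose (2.10 and 2.52), and in rRNA-depleted libraries it measured 0.12 and -0.27. Esm1, an endothelial proteoglycan gene, fell in both clones in both sets (-3.35 and -2.66 in polyA), and Srgn, encoding serglycin, fell in polyA libraries (-2.07 and -1.18).

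The pattern of 3 family genes over the 18 libraries was compared with those of 12937 genes tested in both sets, after each set was centred on its own mean. Omd was most like Fhl1 (Pearson r = 0.974), Mdga1 (0.973) and Pth1r (0.972). Ogn was most like Phkb (0.958), Rab2b (0.956) and Acp2 (0.954), and Dcn was most like Mfsd4b4 (0.911), Parp9 (0.903) and Nenf (0.898). Within the family, the highest value was between Ogn and Aspn (0.928), followed by Fmod and Prelp (0.899) and by Omd and Prelp (0.887). Dcn and Lum reached 0.701, and Dcn and Omd -0.446. These are descriptions over libraries of 3 lines, which share their group differences.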

How the data were processed

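Gene expression was measured by RNA-seq in 18 libraries of C3H/10T1/2 cells, 9 polyA and 9 rRNA-depleted, grouped by line as labelled. For the polyA set the authors deposited estimated counts from Salmon (version 0.8.2 per the labels), summed to genes of mm10 and given as whole numbers, so rounding changed 0 values. For the rRNA-depleted set the deposited values are counts per gene and per transposable element copy after STAR (2.27.10a per the labels) alignment to mm10. Strand handling is not given in the sources used here. Entrez identifiers were paired with symbols for 24045 of 24100 genes through RefSeq, and gene positions came from GENCODE (mm10).

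Counts were analysed with edgeR, 4.0.16: filterByExpr (minimum count 10, total 15, large group 10, proportion 0.7), TMM scaling, glmQLFit and glmQLFTest over the 9 libraries of a kind, without a replicate block. Replicate numbers come from the sample names. In deviations from group means, every same-numbered pair had r over 0.1 for sg5 against sg6 in both sets. The same held for sg6 against WT in rRNA-depleted libraries. In the rRNA-depleted set some pairs of different number had a higher r. For sg6 against WT in polyA libraries the lowest r was 0.098. The blocked fit is an alternative. That left 15480 genes in the polyA set and 13303 genes among 56086 features in the rRNA-depleted set. P-values were adjusted by the Benjamini-Hochberg method over all features of a kind. A gene was called at a log2 fold change beyond 1 and an adjusted p below 0.05. CPM are TMM-scaled, and per-kilobase values use the union of annotated exons. Likeness used log2 CPM with a prior count of 2. The fit was tested on simulated data. DESeq2 1.42.0, other scalings, filters, thresholds, thinned counts and each library left out were tried as alternatives.

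All 10 genes and Atrx are named. Of the other lists, the genes called in the same direction in both clones of a kind are named, as are all genes of the leucine-rich relatives, while neighbours within 1 Mb are named when called in both clones. Tnmd and the genes that check the cell type were chosen as markers. The members and lists were chosen with earlier results of these data known. Counting intervals and depth cover counting error only.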

Additional observations from a re-analysis of the deposited data

How the results depend on the processing

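Omd kept its call in every refit that used the same rule, and every called gene kept its sign in the refits against WT. With glmTreat, which tests the log2 fold change against 1 instead of 0, the polyA counts were 1 higher and 0 lower in each clone (4 and 1 as reported). The rRNA-depleted counts were 1 higher in sg5 and 0 in sg6 (4 and 3 as reported). The gene left was Omd in polyA libraries and Fmod in sg5 rRNA-depleted libraries. Omd lost its call in both clones in the rRNA-depleted set (glmTreat adjusted p = 0.0767 in sg5 and 0.0803 in sg6). Without a filter on low counts, 7 rose in sg5 and 1 was higher in sg5 than in sg6 in rRNA-depleted libraries. Ogn, Lum and Epyc were the genes gained in sg5, at log2 fold changes near those of the reported fit. Leaving out libraries gave 2 to 4 genes higher in sg5 polyA libraries, 2 to 4 in sg5 rRNA-depleted and 1 to 3 in sg6 rRNA-depleted libraries, the lowest without sg5 replicate 1 (polyA), without WT replicate 2 (sg5) and without WT replicate 2, WT replicate 3 or sg6 replicate 1 (sg6). Leaving out replicate 1 of every line, an alternative chosen after seeing the data, gave 2 genes lower in sg5 polyA libraries, where Lum joined Podn (log2 -1.30, adjusted p = 0.0115 in edgeR), and turned Lum to -0.37 (sg5) and -0.59 (sg6) in rRNA-depleted libraries. Between clones it turned Ogn to -0.17, Lum to -0.60 and Fmod to 0.63 in polyA and Omd to 0.37 and Bgn to 0.063 in rRNA-depleted libraries. Thinning turned Lum to 0.011 in sg6 polyA libraries. Between the clones in rRNA-depleted libraries Omd was 0.0038 after thinning and 0.0013 without the filter. The cause was not tested.

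The replicate number was fitted as a block. Same-numbered libraries correlated by 0.03 to 0.43 in the polyA set and by -0.23 to 0.64 in the rRNA-depleted set in their deviations from the group means, with means of 0.26 and 0.29, beside -0.13 and -0.14 for libraries of different number. Every same-numbered pair was over 0.1 for sg5 against sg6 in both sets and for sg6 against WT in rRNA-depleted libraries. In the other comparisons at least 1 pair was under 0.1, which is an arbitrary cut. Some rRNA-depleted pairs of different number were higher. There, sg5 replicate 3 reached 0.5555 with sg6 replicate 2 and 0.1745 with sg6 replicate 3. WT replicate 3 reached 0.252 with sg6 replicate 1 and 0.1143 with sg6 replicate 3. For sg6 against WT in polyA libraries the pairs reached 0.381, 0.098 and 0.43, each above every pair of different number there. For sg5 against WT the lowest pair was 0.026 in polyA and -0.229 in rRNA-depleted libraries. For sg5 against WT the data do not show that the numbers pair the libraries. The best match had the same number in 15 of 18 polyA and 12 of 18 rRNA-depleted cases. The replicate block called the same number of genes in polyA libraries, 4 and 1 in each clone, and 5 and 4 higher in sg5 and sg6 rRNA-depleted libraries, where Ogn and Aspn were gained. It changed no other call among the 10 genes. It turned Lum to -0.44 in sg5 polyA libraries and, between clones, Lum to -0.089 and Fmod to 0.21.

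Leaving out each library gave uncalled log2 fold changes on both sides of 0. In polyA libraries against WT, Lum ranged from -1.21 to 0.43 in sg5 and from -0.61 to 0.18 in sg6, and Epyc from -0.20 to 1.21 and from -0.83 to 0.26. Between clones in polyA libraries, Ogn ranged from -0.031 to 0.42, Lum from -1.11 to 0.64, Fmod from -1.001 to 1.52, Podn from -0.20 to 0.11 and Epyc from -0.086 to 1.69. In rRNA-depleted libraries against WT, Lum ranged from -0.83 to 1.98 in sg5 and from -1.04 to 1.37 in sg6, and Epyc from -0.24 to 1.57 in sg6. Between clones there, Omd ranged from -0.39 to 0.32, Ogn from -0.072 to 0.75, Aspn from -0.036 to 0.64, Dcn from -1.20 to 0.64, Lum from -1.70 to 2.54, Bgn from -0.15 to 0.10 and Prelp from -0.28 to 0.56.

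Counts over all genes moved as well. In polyA libraries 493 rose and 1078 fell in sg5 and 563 and 1167 in sg6, beside 2105 and 2075, and 2491 and 2260, by adjusted p alone, 173 and 521, and 226 and 594, by glmTreat, and 657 lower in sg5 and 372 and 730 in sg6 with at least 10 counts in every library. In rRNA-depleted libraries 405 rose and 573 fell in sg5 and 288 and 477 in sg6, beside 750 and 473 higher by adjusted p alone, 114 and 310, and 110 and 269, by glmTreat, and 267 and 296, and 168 and 200, with at least 10 counts. Without WT replicate 2, 249 rose in sg5, without WT replicate 3, 207 in sg5 and 170 in sg6, and without a filter 624 in sg5. The median of all genes in sg5 rRNA-depleted libraries moved from 0.08 to 0.18 without WT replicate 1.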
